A study of Bos taurus with 10 samples.

Results

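The 10 genes followed in the liver of dairy cows serve de novo lipogenesis, the making of fatty acids from acetyl-CoA in the cytosol. They were FASN, ACACA, ACACB, ACLY, ACSS2 and ME1, which code for enzymes, and SREBF1, MLXIPL, THRSP and MID1IP1, which code for regulators. Every probe set was taken whose single gene symbol in the platform annotation was one of these 10 symbols. All 10 were present, read by 16 probe sets, among 9155 named genes and 24016 probe sets in all. A probe set is a group of short probes on the array that are read together. Its value is a log2 signal, so that a difference of 1 means a doubling.

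The cows were 40 female Holsteins of first and later parities, 20 fed conjugated linoleic acid (CLA) in a fat protected from the rumen and 20 fed a control fat protected likewise. Either fat made up 27.3% of a hand-fed supplement of 630 g dry matter a day, given between week 3 prepartum and week 14 postpartum. All cows had the same partial mixed ration and individual concentrate, and the liver biopsies analysed came from week 5 of lactation. Each of the 5 CLA pools and 5 control pools held the RNA of 4 cows and was read on 1 array, so a p-value here measures the spread between pools of 4 cows. The isomers in the CLA fat and the makeup of the control fat were not used here.

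In this pathway citrate leaves the mitochondrion and is split to acetyl-CoA by ACLY, or acetate is activated to acetyl-CoA by ACSS2. The carboxylases ACACA and ACACB turn acetyl-CoA into malonyl-CoA, and FASN, fatty acid synthase, joins malonyl units into palmitate with NADPH that ME1 and other enzymes supply. In cattle, adipose tissue and the lactating mammary gland are the main sites of lipogenesis, acetate is the main carbon source, and the liver contributes little. CLA isomers are known for lowering milk fat and the lipogenic genes of the mammary gland, and the question here was whether the same genes differ in the liver.

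The arrays resembled each other closely, with correlations of array pairs between 0.988 and 0.996. CLA pool 2 stood farthest from the rest, with a mean correlation of 0.990 and the lowest limma array weight, 0.482, so values without it are given for the lipogenic genes and the named pathway genes that it moved most. Array medians lay between 5.79 and 5.82 in CLA pools and between 5.83 and 5.85 in control pools, and differences are therefore also given under other scalings where their direction depends on it.

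None of the 10 genes differed between CLA and control livers beyond the spread between pools. Of the 16 probe sets, 0 had a Benjamini-Hochberg adjusted p under 0.05 in limma, against a background of 0% of all probe sets, and the adjusted values lay between 0.603 and 0.996. At an unadjusted p under 0.05 the count was also 0 of 16, where 8.89% of all 24016 probe sets stood. The CLA and control pools overlapped for all 16, while they did not overlap for 1.97% of all probe sets. Differences, CLA minus control, ran from -0.24 to 0.10 on the log2 scale, with 5 probe sets above 0 and 11 below it, where 43.5% and 55.9% of all probe sets lay. With the brightest probe set per gene, 5 genes lay above 0 and 5 below, beside 46% and 53.2% of all genes, and the median difference was 0.001, against -0.010 over all 9155 genes. After quantile and cyclic loess normalization 3 lay above 0 and 7 below (medians -0.028 and -0.022), and after subtraction of array medians 6 and 4 (median 0.032).

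**Figure D1:**
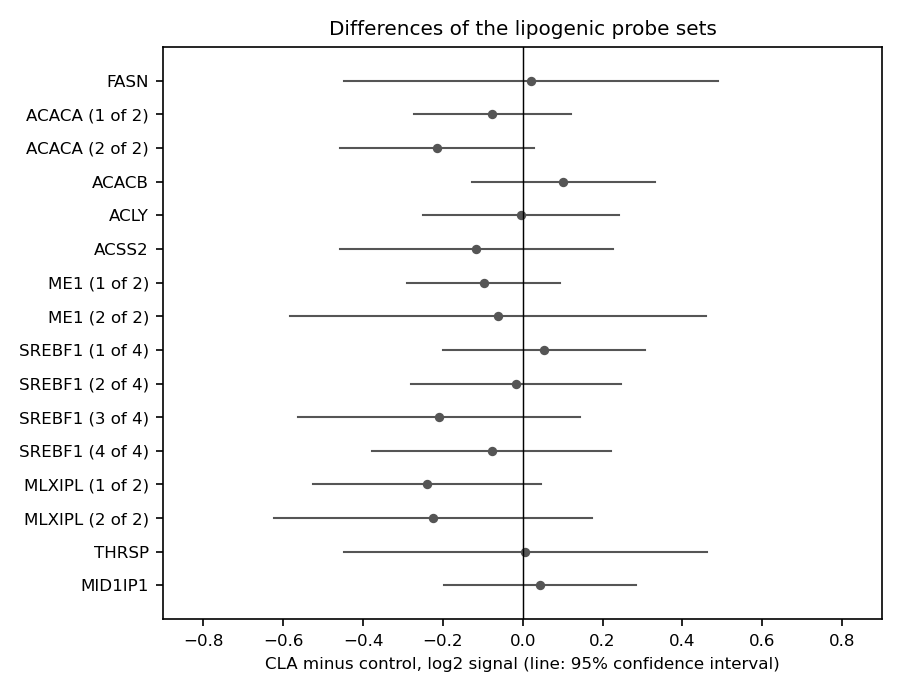
Difference of each probe set, CLA minus control pools, in log2 signal (horizontal axis), with its 95% confidence interval from limma. All 16 intervals cover 0, and the points lie between -0.24 and 0.10.

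The precision of these comparisons can be read from the confidence intervals. For 15 of the 16 probe sets the 95% interval lay inside a 1.5-fold change in either direction. The exception was the dimmer MLXIPL probe set, whose interval reached down to -0.62. The 15 include 3 probe sets among the dimmest 30% of the array, of ACACA, ME1 and SREBF1. Whether these rise above background was not settled, so their intervals may not bound the change of the transcript. The dimmer ME1 set was only just inside, with its interval reaching down to -0.583. The lowest and highest bounds over all 16 corresponded to 0.650-fold and 1.40-fold.

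Fatty acid synthase was bright in the liver and varied widely between pools. FASN had 9.46, 9.0, 9.43, 9.34 and 9.91 log2 signal in CLA pools 1 to 5, against 8.69, 9.32, 9.43, 9.62 and 9.98 in control pools 1 to 5. Control pool 1 was the lowest and control pool 5 the highest of the 10, 2.45-fold apart, and the CLA pools lay within the control range. The means were 9.43 ± 0.33 in CLA pools and 9.41 ± 0.47 in control pools (SD, n = 5 each), a difference of 0.020 ± 0.22 SE (limma with Benjamini-Hochberg adjustment, adjusted p = 0.989). The 95% interval of the difference ran from -0.45 to 0.49, that is from 0.733-fold to 1.40-fold. The sign of so small a difference was not fixed, since it was 0.13 without CLA pool 2 and -0.16 without control pool 1.

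THRSP, a thyroid hormone responsive nuclear protein also called Spot 14 that goes with lipogenesis in many tissues, had a like spread. It had 8.43, 8.17, 8.22, 7.94 and 8.81 log2 signal in CLA pools 1 to 5, against 7.85, 8.46, 7.81, 8.66 and 8.76 in control pools 1 to 5. CLA pool 5 was the highest and control pool 3 the lowest, and the groups overlapped over most of their range. The difference was 0.006 ± 0.21 SE (adjusted p = 0.996 in limma). MID1IP1, a paralog of THRSP that promotes polymerization of acetyl-CoA carboxylase, varied less. It had 9.26, 8.78, 9.17, 9.20 and 9.32 in CLA pools 1 to 5, against 9.14, 9.09, 8.84, 9.18 and 9.26 in control pools 1 to 5. CLA pool 2 lay below all the others, and the difference of 0.044 ± 0.11 SE (adjusted p = 0.942 in limma) was 0.14 without that pool.

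**Figure D2:**
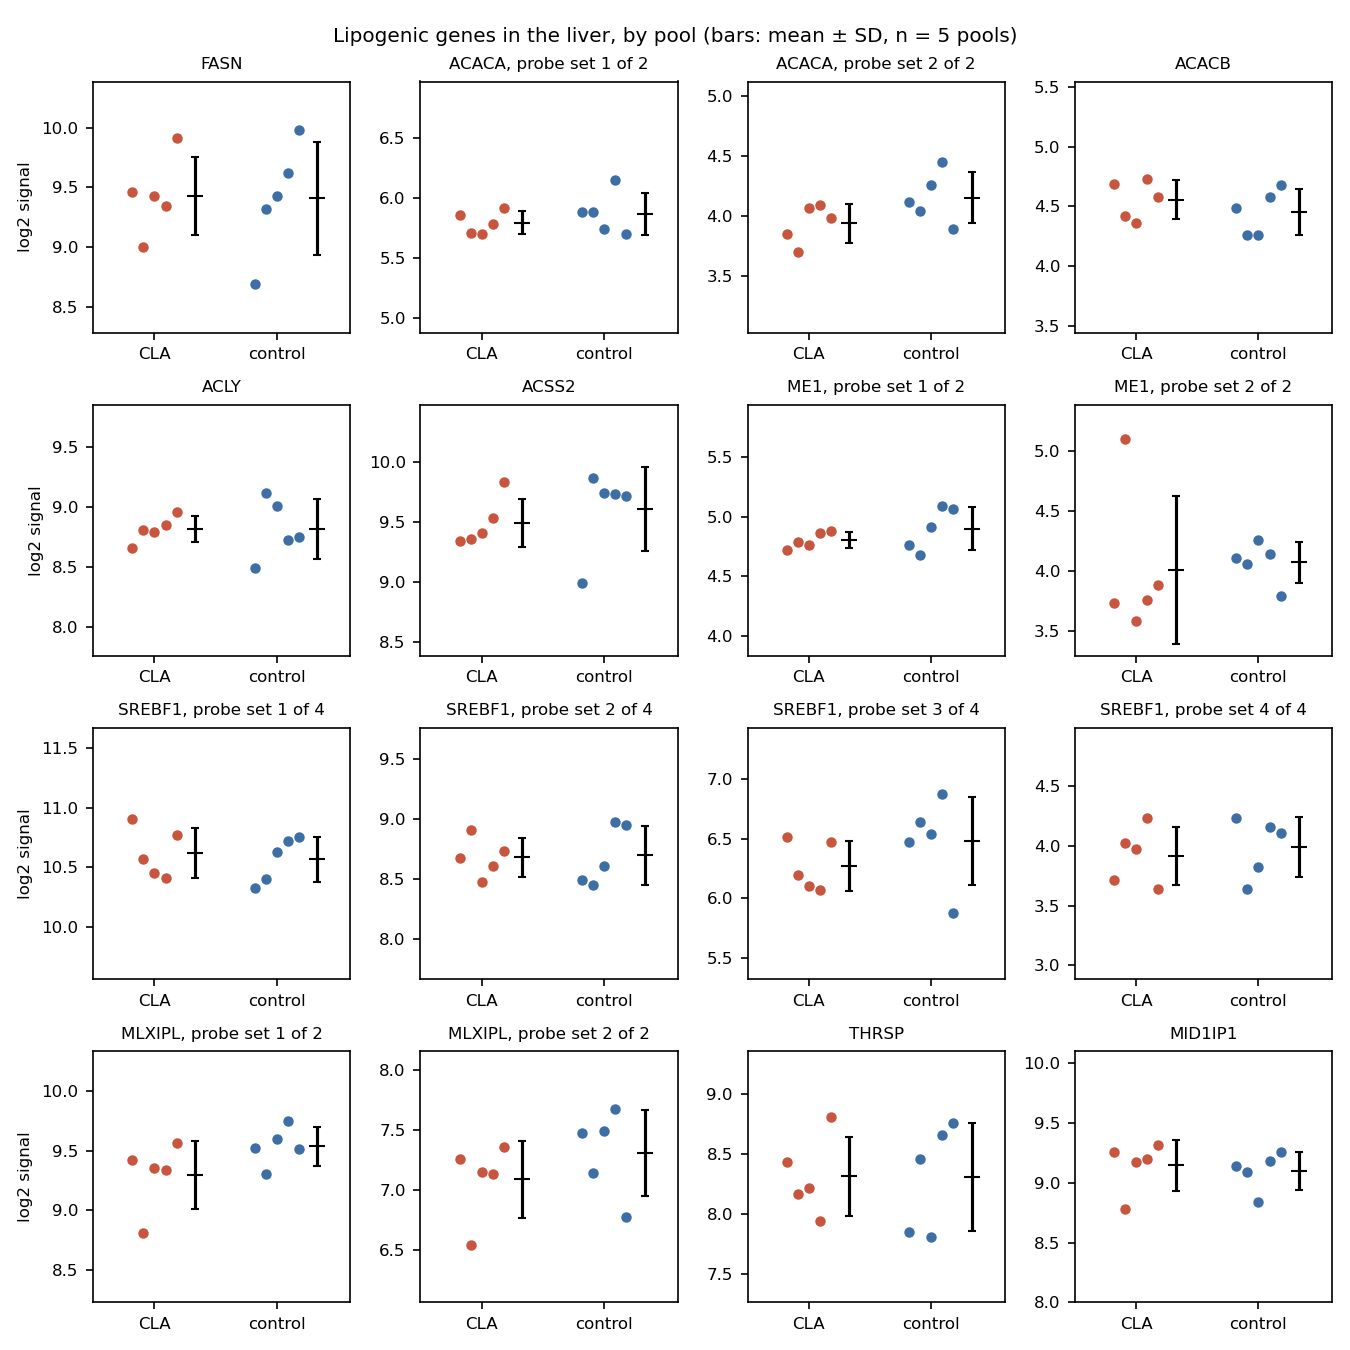
Log2 signal of each of the 16 probe sets in the 5 CLA pools (left, red) and the 5 control pools (right, blue), with the mean ± SD of each group as a black bar; each panel spans the same height on the log2 scale. The groups overlap in every panel, and a single CLA pool at 5.10 stands far above the other 4 for the dimmer ME1 probe set.

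The enzymes that supply acetyl-CoA also showed no difference beyond the pool spread. ACSS2, the cytosolic enzyme that activates acetate, had 9.34, 9.36, 9.41, 9.53 and 9.83 log2 signal in CLA pools 1 to 5, against 8.99, 9.87, 9.74, 9.73 and 9.72 in control pools 1 to 5. Control pool 1 lay far below the other control pools, which were close together and above 4 of the 5 CLA pools. The difference was -0.12 ± 0.16 SE over all pools (adjusted p = 0.875 in limma). It was -0.27 without control pool 1 (unadjusted p = 0.0242, adjusted p = 0.530 in limma). That pool was singled out by its own ACSS2 value, so the unadjusted p without it is not a fair test. ACLY, ATP citrate lyase, had 8.66, 8.81, 8.79, 8.85 and 8.96 in CLA pools 1 to 5, against 8.49, 9.12, 9.01, 8.72 and 8.75 in control pools 1 to 5. The CLA pools of ACLY lay within the range of the control pools, and the difference was -0.004 ± 0.11 SE (adjusted p = 0.996 in limma).

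The carboxylases gave dimmer signals. ACACA, the cytosolic carboxylase whose malonyl-CoA feeds fatty acid synthesis, had 5.86, 5.71, 5.70, 5.78 and 5.92 log2 signal at its brighter probe set in CLA pools 1 to 5, against 5.88, 5.88, 5.74, 6.15 and 5.70 in control pools 1 to 5. Control pool 4 was the highest, and the remaining pools of both groups overlapped. The difference was -0.076 ± 0.091 SE there (adjusted p = 0.849 in limma) and -0.21 ± 0.11 SE at the dimmer probe set. The dimmer set averaged 3.94 ± 0.16 in CLA pools and 4.15 ± 0.21 in control pools (SD, n = 5 each), among the dimmest 30% of the array, and had the lowest p of all member probe sets (unadjusted p = 0.0790, adjusted p = 0.603 in limma). ACACB, the carboxylase at the mitochondrial outer membrane whose malonyl-CoA restrains fatty acid entry, ran from 4.36 to 4.73 in CLA pools and from 4.26 to 4.68 in control pools. Its difference was 0.10 ± 0.11 SE (adjusted p = 0.821 in limma), with pools of both groups intermingled.

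ME1, cytosolic malic enzyme, which makes NADPH, gave a dim signal at both of its probe sets. The brighter set averaged 4.80 ± 0.067 in CLA pools and 4.90 ± 0.18 in control pools (SD, n = 5 each), a difference of -0.098 ± 0.088 SE (adjusted p = 0.787 in limma). The dimmer set had 3.73, 5.10, 3.58, 3.76 and 3.88 in CLA pools 1 to 5, against 4.11, 4.06, 4.26, 4.14 and 3.79 in control pools 1 to 5. CLA pool 2 alone stood high, while the other CLA pools lay at or below most control pools. The difference at this set was -0.062 ± 0.24 SE with all pools. It was -0.33 without CLA pool 2 (unadjusted p = 0.00633, adjusted p = 0.476 in limma). Since CLA pool 2 was singled out by its own value at this set, that unadjusted p is not a fair test. The brighter ME1 set had 4.79 in CLA pool 2, in the middle of the CLA pools, so the high value was seen at 1 of the 2 probe sets.

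Among the transcription factors, SREBF1, which codes for sterol regulatory element binding protein 1 and drives lipogenic genes in response to insulin, was read by 4 probe sets of very different brightness. The brightest had 10.90, 10.57, 10.45, 10.41 and 10.77 log2 signal in CLA pools 1 to 5, against 10.33, 10.40, 10.63, 10.72 and 10.75 in control pools 1 to 5. CLA pool 1 was the highest and control pool 1 the lowest, and the groups otherwise overlapped. The difference was 0.054 ± 0.12 SE (adjusted p = 0.929 in limma), and the other 3 probe sets differed by -0.016, -0.21 and -0.078. The probe sets of SREBF1 therefore did not share a direction, and the mean of the 4 differed by -0.062.

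MLXIPL, which codes for the carbohydrate response element binding protein, had the lowest difference of the 10 genes, and its probe sets were alike. The brighter had 9.42, 8.81, 9.35, 9.34 and 9.56 log2 signal in CLA pools 1 to 5, against 9.52, 9.30, 9.60, 9.75 and 9.51 in control pools 1 to 5. CLA pool 2 lay below the other 9 pools, and 3 of the other CLA pools lay between the lowest control pool and the rest of the control pools. The means were 9.30 ± 0.29 in CLA pools and 9.54 ± 0.16 in control pools (SD, n = 5 each), a difference of -0.24 ± 0.13 SE (unadjusted p = 0.0916, adjusted p = 0.624 in limma). The dimmer set differed by -0.22 ± 0.18 SE, with CLA pool 2 again the lowest at 6.54. Without CLA pool 2 the differences were -0.12 and -0.087.

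**Figure D3:**
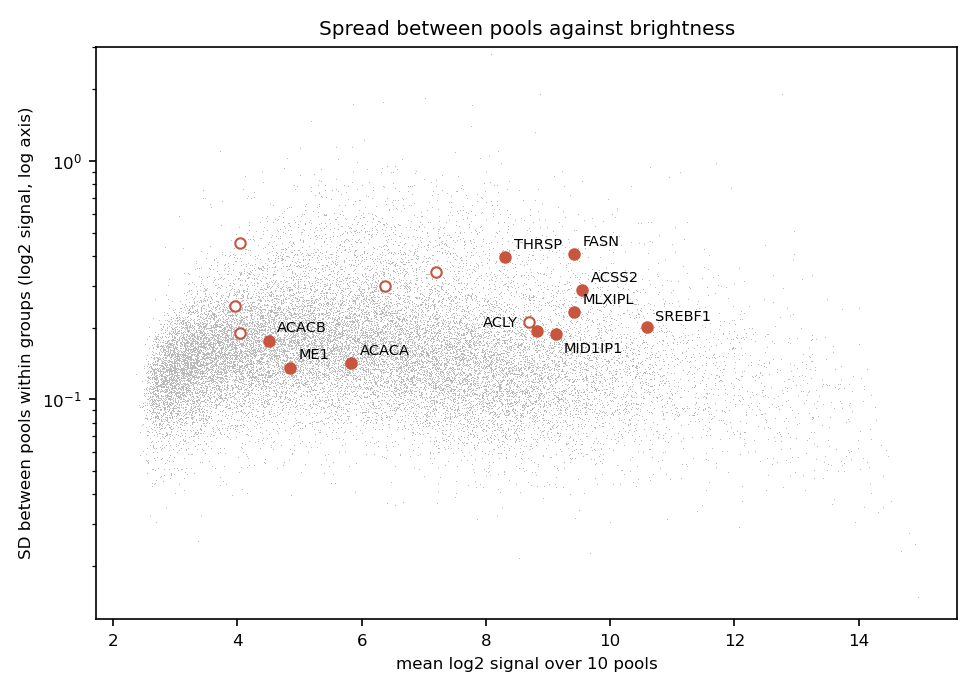
SD between pools within groups (vertical, log2 signal on a log axis) against the mean log2 signal over the 10 pools (horizontal) for all 24016 probe sets (grey), with the brightest probe set of each lipogenic gene filled and named and their other probe sets open. FASN, THRSP and ACSS2 lie high for their brightness, with SDs of 0.41, 0.39 and 0.29.

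The brightness of a probe set depends on its probes as well as on the transcript, so no order of abundance between the genes was drawn from it. By brightness over the 10 arrays, the top probe set of SREBF1 stood at the 95.9th percentile of all probe sets, ACSS2 at the 91.5th, FASN and MLXIPL at the 90.7th, and MID1IP1 at the 88.7th. ACLY stood at the 86.4th and THRSP at the 81.6th percentile. The brighter ACACA set was at the 50.1st percentile, that of ME1 at the 36.6th and ACACB at the 31.7th. Of the 16 probe sets, 3 were among the dimmest 30%, the dimmer sets of ACACA and ME1 and the dimmest of SREBF1. The values used held no detection calls, so it was not settled whether these dim sets rise above background.

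Several members varied more between pools than probe sets of like brightness. The SD within groups was 0.41 for FASN, above 97.6% of the probe sets of like brightness, whose median was 0.13. Probe sets of like brightness are those in the same of 10 equal classes by mean signal. It was 0.39 for THRSP, above 95.8% of its class, and 0.29 for ACSS2, above 93.0%. ACACA at its brighter set (0.14), ME1 at its brighter set (0.14) and ACACB (0.18) were close to or below the median of their classes, 0.18 for each. Of the 10 genes, 8 had a larger SD than the median of their class.

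In some pools the members deviated in the same direction, as far as 10 pools can show. In CLA pool 5 all 10 genes lay above the mean of the CLA pools at their brightest probe set, and in CLA pool 2 it was 0 of 10. It was 7, 3 and 6 of 10 in CLA pools 1, 3 and 4, and 3, 4, 6, 9 and 7 in control pools 1 to 5. The share of all genes above the group mean in each pool was not counted. These counts therefore have no background beside them and are not a result about the members. Over all probe sets, CLA pool 2 had the highest SD of log2 values among CLA arrays (2.43) and CLA pool 5 the lowest (2.38). The part of this array spread in the counts was not tested. With group means removed, all 9 other members had a positive Pearson correlation with FASN, with a median of 0.53. Over 9154 genes the median was -0.078, and 4012 were positive. Over the 61 other genes of the lipogenic pathways listed further on the median was -0.11, with 28 positive. Pools were permuted within groups in 14400 exact arrangements, and p-values were adjusted over the 9 relations. None passed an adjusted p under 0.05, while 3 had an unadjusted p under 0.05 (ACSS2, SREBF1 and THRSP). The share of all genes with such a p was not counted.

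For THRSP and FASN Pearson's r was 0.763 (n = 10 pools, exact permutation p = 0.0169, adjusted 0.113) and Spearman's rho was 0.723 (exact p = 0.0428, adjusted 0.129). Without control pools 1 and 5, the pools farthest from the median FASN value, r was 0.622 (exact p = 0.0972). Fewer arrangements remain without these pools, which were picked by their FASN values. Exact p-values without them therefore do not compare with those over all 10 pools. For ACSS2 and FASN r was 0.777 (n = 10, exact permutation p = 0.0348, adjusted 0.113) and rho 0.505 (exact p = 0.158, adjusted 0.237). Without the same pools r was 0.668 (exact p = 0.229). For SREBF1 and FASN r was 0.682 (n = 10, exact permutation p = 0.0376, adjusted 0.113) and rho 0.821 (exact p = 0.00924, adjusted 0.0831), with r at 0.507 (exact p = 0.293) without them. Under other processing that kept all pools, r for SREBF1 was as low as 0.244. ACACA, the enzyme just before FASN in the pathway, had an r of 0.111 with it (n = 10, exact permutation p = 0.802, adjusted 0.802) and a rho of 0.0762 (exact p = 0.853, adjusted 0.959). Without the same pools r was 0.614 (exact p = 0.0389), so the value for ACACA depended on those pools.

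**Figure D4:**
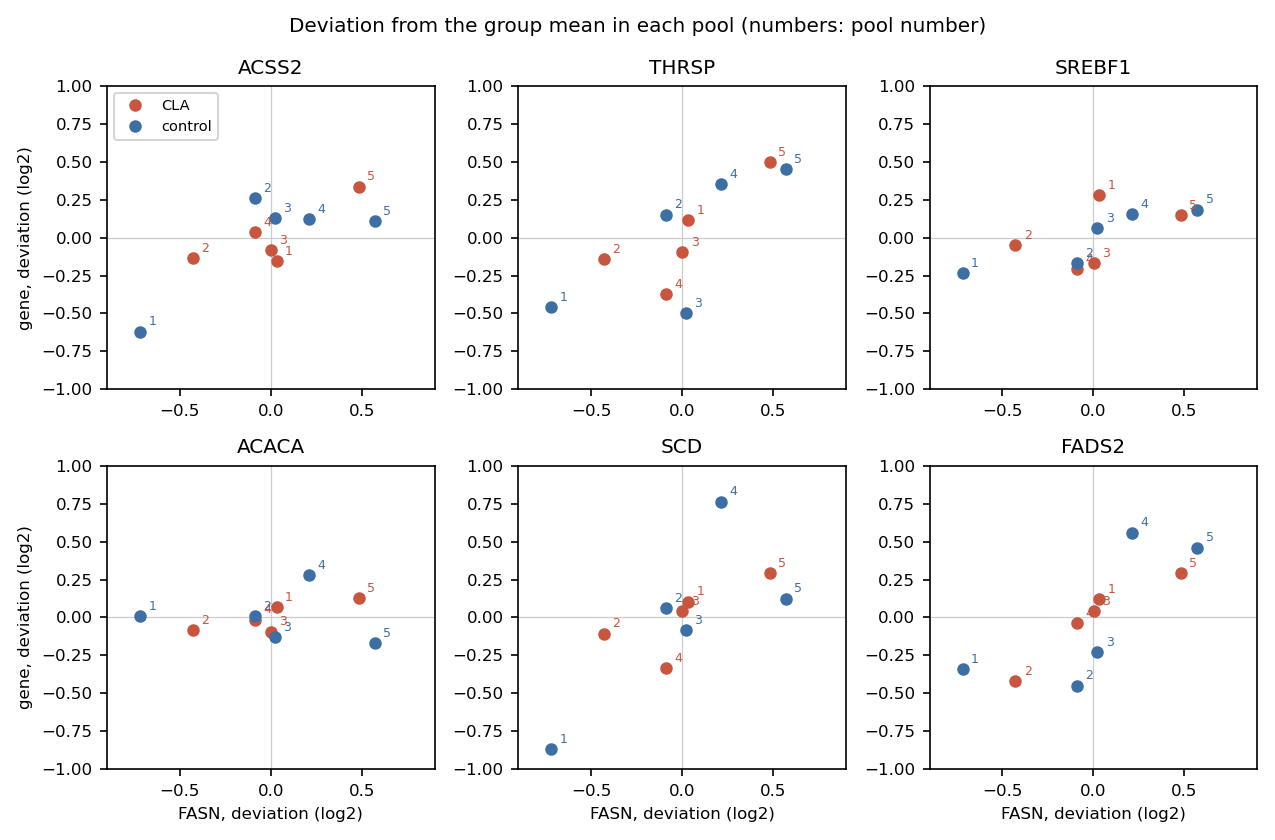
Deviation of 4 lipogenic genes and of the desaturase genes SCD and FADS2 from their group mean (vertical, log2 signal) against that of FASN (horizontal) in each pool, CLA in red and control in blue, numbered by pool. Control pool 1 lies lowest for FASN and control pool 5 highest. Over all 10 pools THRSP, SCD and FADS2 lie along with FASN, while ACACA does not (r = 0.111). Without control pools 1 and 5, r was 0.614 for ACACA and 0.622 for THRSP.

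The desaturases, which act on the products of FASN or on dietary fatty acids, were compared with FASN in the same way, in a family of 12 pathway genes added after the data were seen. FADS2, the delta-6 desaturase, had an r of 0.793 with FASN (n = 10, exact permutation p = 0.00903, adjusted 0.108) and a rho of 0.857 (exact p = 0.00653, adjusted 0.0392). Without control pools 1 and 5 its r was 0.772 (exact p = 0.00139, the lowest value that the remaining pools allow). SCD, stearoyl-CoA desaturase, had an r of 0.738 (n = 10, exact permutation p = 0.0510, adjusted 0.204) and a rho of 0.869 (exact p = 0.00451, adjusted 0.0392), with r at 0.619 (exact p = 0.0458) without them. IDH1, a cytosolic source of NADPH, ran the other way, with an r of -0.648 (n = 10, exact permutation p = 0.0511, adjusted 0.204) and a rho of -0.705 (exact p = 0.0340, adjusted 0.136), and an r of -0.839 (exact p = 0.00556) without the same pools. The other 9 of these genes had exact permutation p-values of 0.12 or more. Of all 61 pathway genes, AACS had a higher r with FASN (0.884) than FADS2. CPT2 (-0.738), MLYCD (-0.732), ACSS1 (-0.731), PC (-0.731) and MPC1 (-0.704) had a lower r than IDH1. These genes were outside the family of 12, and no permutation test was run for them.

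The spread of values on an array moved with FASN too. The SD of log2 values over all probe sets of an array, with group means removed, had an r of -0.749 with FASN (n = 10, exact permutation p = 0.0235, adjusted 0.0942 over 4 array measures) and a rho of -0.705 (exact p = 0.0344), and r was -0.824 without control pools 1 and 5. The difference between the 3′ and 5′ control probe sets of GAPDH, a measure of RNA integrity, had an r of 0.387 (exact permutation p = 0.356, adjusted 0.712), which was 0.729 without those pools. The same difference for actin had an r of -0.083 (exact permutation p = 0.836, adjusted 0.836), which was 0.559 without them. The part of any of these measures in the relations among lipogenic genes was not tested. Named genes that followed FASN most closely over the 10 pools were CRIP2 (r = 0.965, rho = 0.967), SEC22C (r = 0.963, rho = 0.960) and NEIL1 (r = 0.916, rho = 0.900), and those that ran most against it were CRLF3 (r = -0.936, rho = -0.960), PSME2 (r = -0.934, rho = -0.888) and VTA1 (r = -0.934, rho = -0.927). These were the extremes of 9154 genes and share the arrays with FASN. Among all genes THRSP ranked 151 and ACSS2 118 by this measure.

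**Figure D5:**
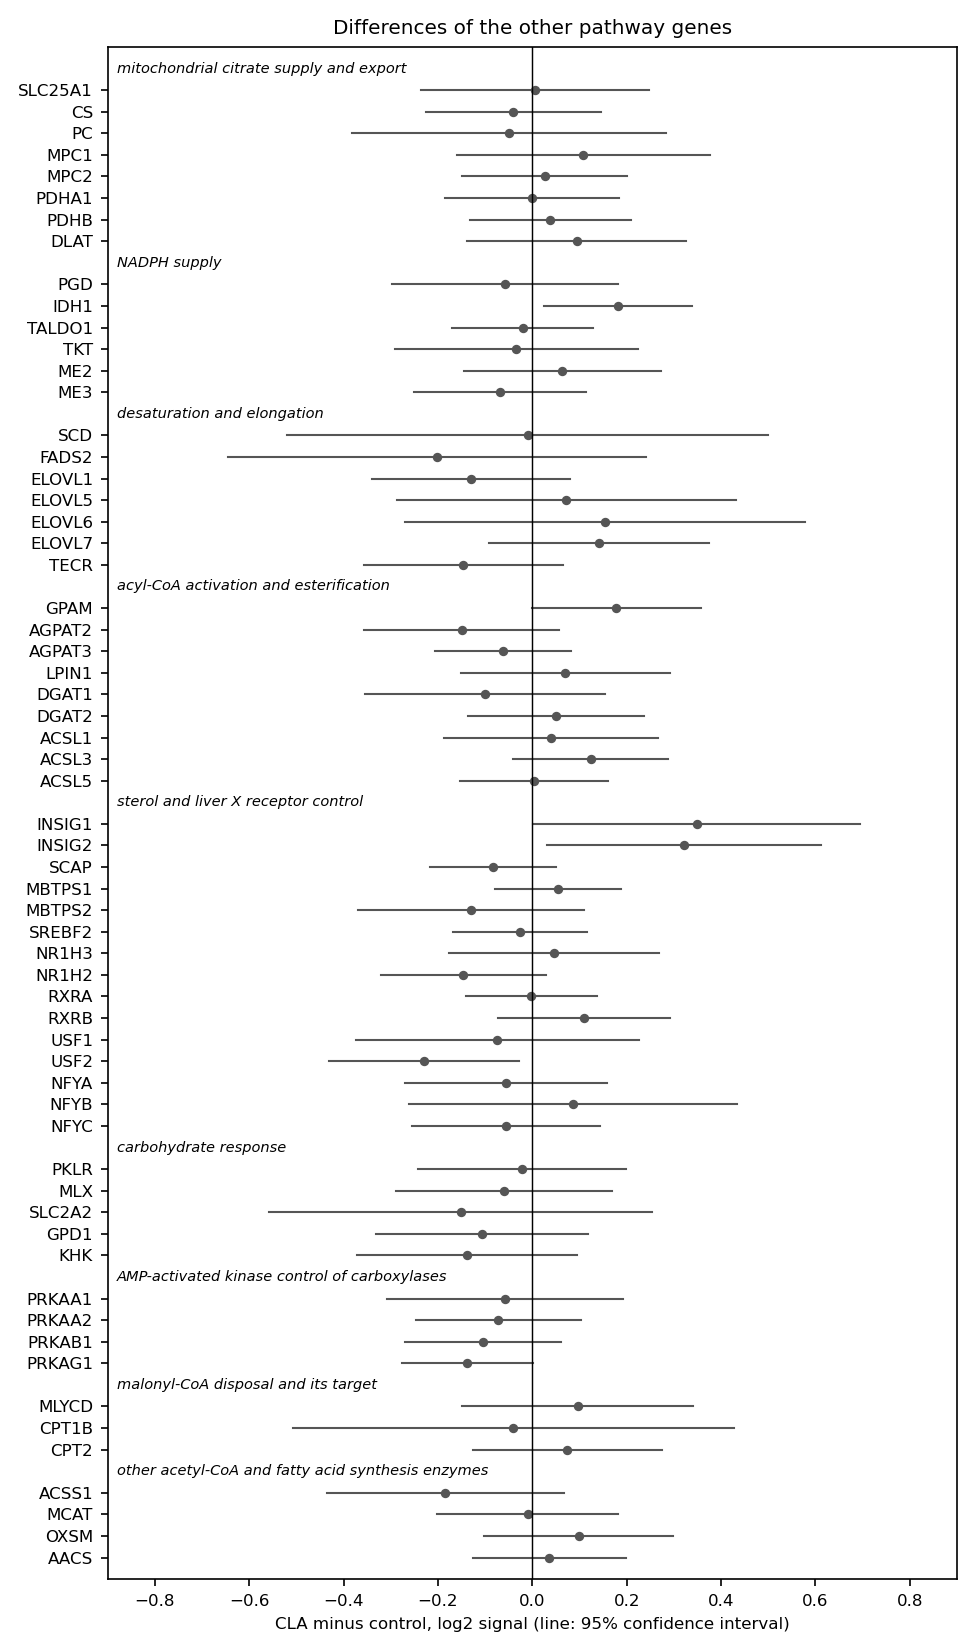
Differences of the 61 measured genes of the surrounding pathways, CLA minus control pools, in log2 signal (horizontal axis) with 95% confidence intervals, grouped by function. Most points lie within 0.2 of 0, and INSIG1 and INSIG2 lie farthest to the right at 0.35 and 0.32.

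Around the 10 genes, 61 of 81 listed genes of citrate supply, NADPH supply, desaturation, esterification and lipogenic control were measured. Of these, 0 passed an adjusted p under 0.05 in limma, as 0% of the 9155 genes did, and the lowest adjusted p was 0.506. At an unadjusted p under 0.05, 3 were higher and 1 was lower in CLA pools, where 4.35% and 4.14% of all genes stood. Their median difference was -0.020, with 26 above 0 and 34 below, and it was -0.035 after quantile and after cyclic loess normalization and 0.011 after subtraction of array medians. Over all 93 probe sets of these genes, 10 had an unadjusted p under 0.05, beside 8.89% of all probe sets. The lowest p was that of ACSL3, a long-chain acyl-CoA synthetase, at 1 of its 3 probe sets. That set ran from 7.22 to 7.34 log2 signal in CLA pools and from 6.33 to 7.02 in control pools, without overlap, a difference of 0.51 ± 0.12 SE (unadjusted p = 0.00131, adjusted p = 0.327 in limma). The other ACSL3 sets differed by 0.12, at the brightest, and by -0.054.

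INSIG1 and INSIG2 had the largest differences among these at the brightest probe set per gene. INSIG1 and INSIG2, membrane proteins that retain the SREBP precursors in the endoplasmic reticulum, differed by 0.35 ± 0.16 SE (unadjusted p = 0.0497) and 0.32 ± 0.13 SE (unadjusted p = 0.0325). SCAP, which escorts SREBP out of the endoplasmic reticulum, differed by -0.084, and the proteases MBTPS1 and MBTPS2, which release it, by 0.054 and -0.13. INSIG1 had 11.88, 12.23, 11.93, 11.95 and 12.22 log2 signal in CLA pools 1 to 5, against 11.82, 11.43, 12.23, 11.25 and 11.74 in control pools 1 to 5. The CLA pools were close together while the control pools spread over the whole range, and control pool 3 equalled the highest CLA pool. INSIG1 differed by 0.21 with limma array weights (unadjusted p = 0.200), by 0.24 without control pool 4 and by 0.48 without control pool 3. The adjusted p was 0.562 for INSIG1 and 0.527 for INSIG2 in limma. The other 2 INSIG2 probe sets differed by 0.11 and 0.19. USF2, a factor that binds E-boxes of lipogenic promoters, differed by -0.23 ± 0.092 SE (unadjusted p = 0.0283, adjusted p = 0.510), with CLA pools from 6.82 to 7.19 and control pools from 7.14 to 7.52. SREBF2, which governs cholesterol synthesis, differed by -0.026 ± 0.066 SE and NR1H3, the liver X receptor alpha that induces SREBF1, by 0.046 ± 0.10 SE (0.022 without CLA pool 2).

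In NADPH supply, IDH1, cytosolic isocitrate dehydrogenase, had 11.44, 11.63, 11.59, 11.56 and 11.40 log2 signal in CLA pools 1 to 5, against 11.36, 11.46, 11.37, 11.25 and 11.27 in control pools 1 to 5. Of the CLA pools, 3 lay above every control pool, and the difference was 0.18 ± 0.072 SE (unadjusted p = 0.0262, adjusted p = 0.506 in limma). Its other 2 probe sets differed by 0.31 ± 0.13 SE and 0.036 ± 0.10 SE. PGD, of the pentose phosphate pathway, differed by -0.058 ± 0.11 SE and by -0.15 without CLA pool 2. SLC25A1, the mitochondrial citrate carrier, differed by 0.006 ± 0.11 SE, and DLAT, a subunit of pyruvate dehydrogenase, by 0.094 ± 0.11 SE (0.052 without CLA pool 2).

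Among genes that act on newly made fatty acids, SCD had 11.10, 10.89, 11.04, 10.66 and 11.29 log2 signal in CLA pools 1 to 5, against 10.14, 11.07, 10.92, 11.77 and 11.13 in control pools 1 to 5. The control pools spread over 3.10-fold and held both the lowest and the highest value, and the difference was -0.010 ± 0.23 SE (adjusted p = 0.995 in limma). FADS2 differed by -0.20 ± 0.20 SE, ELOVL6, which elongates palmitate, by 0.15 ± 0.19 SE and TECR, the last enzyme of the elongation cycle, by -0.15 ± 0.097 SE, and their pools overlapped. Leaving out 1 pool moved FADS2 to between -0.31 and -0.062 (-0.098 when CLA pool 2 was left out, -0.062 for control pool 4 and -0.087 for control pool 5) and ELOVL6 to between 0.013 and 0.27 (0.013 when CLA pool 3 was left out, 0.073 for CLA pool 1, 0.25 for CLA pool 2 and 0.054 for control pool 1). GPAM, which starts glycerolipid synthesis at the mitochondrion, averaged 9.59 ± 0.13 in CLA pools and 9.42 ± 0.12 in control pools (SD, n = 5 each), a difference of 0.18 ± 0.082 SE (unadjusted p = 0.0512, adjusted p = 0.562 in limma).

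All 5 measured genes of the carbohydrate response list had differences below 0, as did 53.2% of all genes. The same held for all 4 measured subunits of AMP-activated protein kinase, which phosphorylates and inhibits both carboxylases. These lists held 8 and 7 symbols, and they were the only surrounding lists with every difference on the same side of 0. The medians were -0.11 and -0.088, beside -0.010 over all genes, and 0 of either list had an unadjusted p under 0.05. After subtraction of array medians 4 of the 5 carbohydrate response genes lay below 0, and under each scaling tried the kinase subunits remained 4 of 4. KHK, ketohexokinase, had a difference of -0.14 ± 0.11 SE by its brightest set, -0.046 and 0.17 by the others (unadjusted p = 0.0473 for the last) and -0.006 as the mean of all 3. PKLR, liver pyruvate kinase and a target of MLXIPL, differed by -0.022 ± 0.10 SE, the kinase subunit PRKAG1 by -0.14 ± 0.064 SE (unadjusted p = 0.0511, adjusted p = 0.562 in limma) and PRKAA2, a dim set, by -0.072 ± 0.080 SE. MLYCD, malonyl-CoA decarboxylase, differed by 0.096 ± 0.11 SE and by 0.016 without CLA pool 2, and ACSS1, the mitochondrial relative of ACSS2, by -0.18 ± 0.12 SE. CPT1A, the carnitine palmitoyltransferase that malonyl-CoA inhibits, was not analysed here.

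In the tissue, hepatocyte markers were the brightest of the marker lists, with ALB (albumin) at 14.93 ± 0.011 in CLA pools and 14.88 ± 0.033 in control pools (SD, n = 5 each). Adipocyte markers matter here because bovine fat cells are lipogenic. ADIPOQ (adiponectin) was near the floor of the array, at 3.16 ± 0.084 in CLA pools and 3.17 ± 0.15 in control pools (SD, n = 5 each), and LEP (leptin) averaged 4.04 in CLA pools and 4.06 in control pools. CFD (adipsin) was bright, at 11.35 in CLA pools and 11.50 in control pools, and PLIN1 was not analysed here. Over the 7 measured adipocyte genes of 9, the mean signal per pool ran from 5.21 to 5.42 in CLA pools and from 5.34 to 5.46 in control pools, with PPARG having the smallest p (-0.16 ± 0.077 SE). In the other marker lists 0 genes passed an adjusted p under 0.05. The genes of smallest p there were FGB (0.21), CD68 (-0.23), CD2 (-0.33), LUM (0.34), KRT19 (0.19), MYH7 (0.17), HBA (-0.24) and EMCN (0.25), while PTPRC differed by 0.068 and HBB by -0.058. These genes do not stand for their lists. Above 0 lay 1 of 4 endothelial, 1 of 4 muscle, 1 of 3 cholangiocyte, 3 of 5 stellate cell and 1 of 5 lymphocyte genes. It was 0 of 4 macrophage, 0 of 3 erythroid, 1 of 7 adipocyte and 8 of 10 hepatocyte genes, beside 46% of all genes. Some counts depended on the scaling. After quantile and cyclic loess normalization 6 and 5 of 10 hepatocyte genes lay above 0, and after subtraction of array medians 10. Under each of these scalings it was 4 of 7 adipocyte, 2 of 5 lymphocyte and 2 of 4 muscle genes. The pools did not overlap for HBA (adjusted p = 0.418 in limma) and for TF, transferrin (0.064, adjusted p = 0.779), as was so for 2.17% of all genes. The part of other cell types in the values of the lipogenic genes was not tested. In such bulk samples, fewer cells of a type and less RNA per cell cannot be told apart.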

How the data were processed

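RNA pools of 4 cows were hybridized to Affymetrix bovine arrays, 5 CLA and 5 control pools, grouped by sample title. The values are log2 signals as deposited, summarized to probe sets and normalized by the authors. Per the submitters' processing notes, Expression Console 1.1 of Affymetrix was used with RMA; the order and settings of these steps are not given in the sources used here. Values were used as deposited.

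Of 24128 rows, 112 manufacturer controls were left out and 24016 probe sets tested with lmFit and eBayes of limma 3.58.1 (R 4.3.3), without covariates, two-sided, with Benjamini-Hochberg adjustment over all of them. Differences are CLA minus control. Names came from the platform annotation; the gene identifiers of all 16 member probe sets were found in RefSeq (ARS-UCD2.0) under the same symbol. For lists, the brightest probe set per gene was used.

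Members and lists were chosen with earlier results of these data known. Named beyond the 10 genes were fixed pathway genes, the gene of smallest p in each list, the 3 genes most like and most unlike FASN, and defining cell type markers. INSIG2, SCAP, MBTPS1, MBTPS2, ACSL3, AACS, CPT2, PC, MPC1, CFD and TF were named after their values were seen. Correlations with FASN used exact two-sided permutation of pools within groups (Python 3.11.15, scipy 1.17.1), and those of 12 pathway genes and 4 array measures were added after seeing the data. The fit was tested on simulated data. The number of arrays limits the precision. The pool numbers of the groups are not stated to pair the pools. Alternatives left out each pool in turn, blocked on pool number, dropped the 30% of probe sets with the lowest means, changed the normalization, the variance model or the array weights, or averaged all probe sets of a gene.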

Additional observations from a re-analysis of the deposited data

Results flagged for a closer look

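In 4 of 32 groups (16 probe sets in each diet group) a pool lay far from the other 4, with a gap over the group's range above the 95% critical value of Dixon's test (0.71 for 5 pools). Chance flags about 1 in 20 groups. ACSS2 in control pool 1 had 8.99, against 9.72 to 9.87 in the other control pools. ME1 at its dimmer probe set had 5.10 in CLA pool 2, against 3.58 to 3.88 in the other CLA pools. MLXIPL at its dimmer probe set had 6.54 in CLA pool 2, against 7.13 to 7.36 in the other CLA pools. MID1IP1 had 8.78 in CLA pool 2, against 9.17 to 9.32 in the other CLA pools. Of these 4 values, 3 came from CLA pool 2, the array with the lowest limma array weight (0.482).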

How the results depend on the processing

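No probe set passed an adjusted p under 0.05 in limma under any of the 18 alternatives run on probe sets, among members or over the whole array. The count over the array at an unadjusted p under 0.05 was 2135, and 1501 to 2297 under them, with 2202 by the unmoderated test. Of these 2135, 962 were higher and 1173 lower in CLA pools, against 1474 and 627 after subtraction of array medians, 1196 and 779 after cyclic loess and 1100 and 817 after quantile normalization. Member probe sets with an unadjusted p under 0.05 numbered 0, and 0 to 3 with 1 pool left out: 3 without control pool 5 (ACACA, SREBF1 and MLXIPL), and 1 each without control pool 1 (ACSS2), control pool 2 (MLXIPL), CLA pool 2 (ME1) or CLA pool 5 (MLXIPL). With the pool number as a replicate block it was 2 (ACACA at -0.21 and MLXIPL at -0.24). Deviations of same-numbered pools had correlations from -0.086 to 0.093, which cannot settle whether the pools were paired. The block moved the count over the array to 2168. The median difference of the members ran from -0.10 to 0.032 over the alternatives and that of the other pathway genes from -0.035 to 0.011.

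Signs turned only for differences near 0, and the cause was not tested. After quantile and cyclic loess normalization FASN stood at -0.016 and -0.012, THRSP at -0.018 and -0.013 and SLC25A1 at -0.035 and -0.027. After subtraction of array medians ACLY stood at 0.027, the second SREBF1 set at 0.015, SCD at 0.021, SREBF2 at 0.005 and PKLR at 0.009. With array weights SCD stood at 0.049 and SLC25A1 at -0.0054, and as the mean of its probe sets SREBF1 at -0.062. With 1 pool left out, FASN ran from -0.16 to 0.16, THRSP from -0.12 to 0.12, ACLY from -0.086 to 0.072, the dimmer ME1 set from -0.33 to 0.046, SREBF1 from -0.016 to 0.11 and its second set from -0.077 to 0.053. MID1IP1 ran from -0.022 to 0.14, SCD from -0.23 to 0.18, NR1H3 from -0.008 to 0.13, SLC25A1 from -0.070 to 0.088 and PKLR from -0.091 to 0.052. Pearson correlations of the 9 other lipogenic genes with FASN had no adjusted p under 0.05 under the 13 alternatives, which were not run for the 12 pathway genes. With 1 pool left out that of ACACA ran from -0.082 to 0.512 and that of ACLY from -0.232 to 0.517, and that of ME1 was -0.263 with the mean of its probe sets. Under alternatives that kept all pools, that of SREBF1 fell as low as 0.244 and that of MLXIPL as low as 0.245.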
